A study of Mus musculus with 4 samples.

Results

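CD4+ cells of mouse lymph node were cultured on plates coated with anti-CD3, and RNA of a Treg sample was set against RNA of a T-effector sample on the same 2-colour array. The comparison described here asks how the Treg to T-effector difference under TGFb was altered when IL6 was added. It takes the 7 arrays with TGFb out of 13 in the series, 4 with TGFb and IL6 and 3 with TGFb without IL6, which are 2 of the 4 culture conditions, each deposited as 1 sample holding its arrays. Members were all arrays that the labels place in these 2 conditions, and no measured value was used to choose them. All cells received anti-CD3 at 1 ug/ml, in cultures of 4 days, and IL2 at 100 units/ml. TGFb was given at 4 ng/ml and IL6 at 25 ng/ml, in an incubation of 3 days. The other 6 arrays, 3 with IL2 and no added TGFb or IL6 and 3 with IL2 and IL6, are used for the same contrast without TGFb. The labels do not say how Treg and T-effector cells were separated, from how many mice they came, or whether arrays of 1 condition are separate cultures, so p-values measure how far these arrays differ among themselves, a spread that may be technical.

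Regulatory T cells (Treg) are CD4 T cells that carry the transcription factor Foxp3 and restrain other T cells. TGFb can induce Foxp3 in activated CD4 T cells. IL6, which signals through the shared receptor chain gp130 (Il6st), Janus kinases and the transcription factor Stat3, turns cells that receive TGFb toward the Th17 state, marked by Il17a and Il17f, and is known to oppose the induction of Foxp3.

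Values are log2 ratios of Treg over T-effector signal, 1 per array, and a difference is the mean with TGFb and IL6 minus the mean with TGFb, after a gene-specific dye term, ± its standard error (4 against 3 arrays). A positive ratio means a higher signal in the Treg sample. Because each array also gives the normalized log2 signal of either sample, a change in the ratio was split into the change in Treg and the change in T-effector, each with its own test. A change of ratio is thereby itself the test that the samples responded unequally. The threshold was an adjusted p of 0.05 (limma with Benjamini-Hochberg adjustment over all 19867 genes tested), and levels are not compared between genes.

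The labels were borne out by Foxp3, whose signal was higher in the Treg sample on each of the 7 arrays, with log2 ratios of 2.47, 1.86 and 1.76 with TGFb and 2.71, 1.98, 2.06 and 1.87 with IL6 added. Of 12 markers in the CD4 T cell list, 11 were well above background in every channel. They were Cd3e, Cd3d, Cd3g, Cd247, Cd5, Lck, Cd2, Thy1, Zap70, Lat and Cd28. Cd4 was not among them, so these 11 do not tell CD4 from CD8 T cells. Arrays 1, 2 and 3 of the 2 conditions share slide and dye, on slides called E, B and D here, and array 4 with IL6 lies on slide B with the dyes turned. The share of probes well above background was 39.3% to 69.9% in the Treg channels and 42.1% to 67.1% in the T-effector channels of these 7 arrays. A spatial trend across the array accounted for 35.9% to 51.2% of the variance of bright log ratios on slide E, 9.75% to 14.1% on slide D and 1.43% to 4.78% on slide B. In the B cell list, where only Ighm and Vpreb3 were well above background in every channel and Pax5 in none, the summed signal in Treg was 9860 to 10700 with TGFb and 5450 to 6050 with IL6, and in T-effector 3180 to 4310 and 2090 to 3600. Ighm, the heavy chain of IgM, fell alike in both (Treg -1.03 ± 0.12, T-effector -1.05 ± 0.12), with a ratio difference of 0.02 ± 0.15. For 14 markers of CD8 T cells and NK cells the sum was 10500 to 13200 and 8960 to 10100 in Treg, and 8880 to 9430 and 6110 to 7140 in T-effector. Of these 14, 6 were well above background in every channel: Cd8a, Cd8b1, Klrd1, Nkg7, Klrc1 and Gzma. The part of such cells in the results below was not tested, and in bulk samples fewer cells of a type and less RNA per cell cannot be told apart.

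With IL6 present, 57 genes differed in their ratio (0.287% of those tested), of which 37 were lower (0.186%) and 20 higher (0.101%), and 5.17% of all genes had an unadjusted p under 0.05. Ratio decreases were mostly losses of a Treg excess: of the 37 genes, 35 had been higher in Treg on all 3 arrays with TGFb, and the median ratio went from 1.09 to 0.20. Their ratio became smaller in size for 31, and for 14 it crossed 0. Ratio increases were more mixed: of the 20 genes, 12 had been lower in Treg on all 3 arrays with TGFb and 6 higher, and the median went from -0.15 to 0.69. The ratios of the 4 and the 3 arrays were separate for each of the 57, against 7.57% of all genes (2.88% upward and 4.69% downward), and each of the 57 differed in 1 direction in the 3 pairs of arrays on the same slide, against 47.4% of all genes. The test chose these genes on the same ratios, which favours high ratios with TGFb among the decreases and low ones among the increases. All counts of this paragraph on the 37, the 20 and the 57 therefore only describe them. The share of all genes higher in Treg on all 3 arrays with TGFb is not given here.

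**Figure D1:**
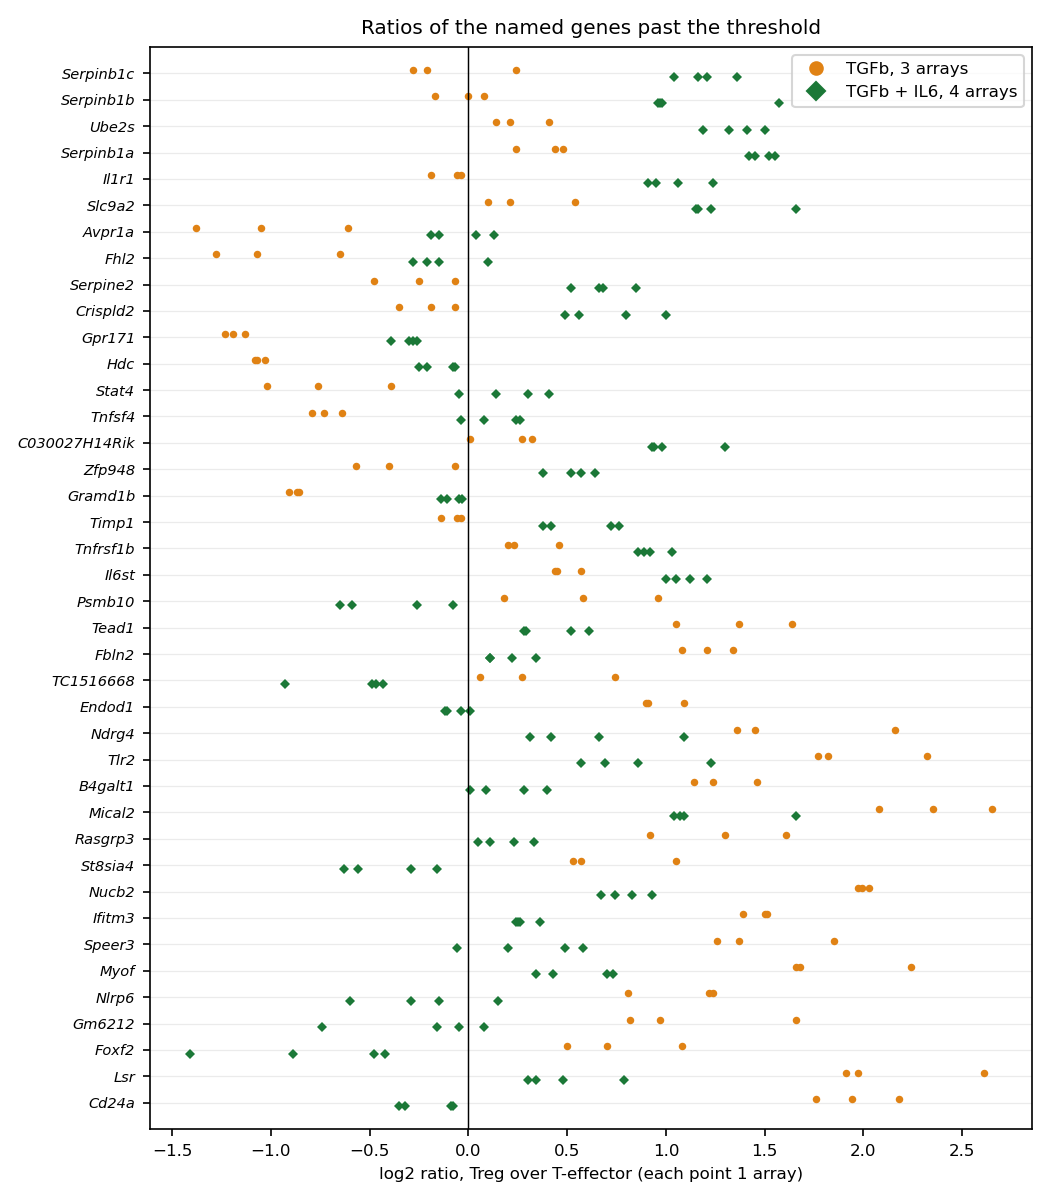
Log2 ratio of Treg over T-effector signal (horizontal axis) on each of the 3 arrays with TGFb (circles) and the 4 with TGFb and IL6 (diamonds), for 40 of the 57 genes past the threshold, those with the largest rises and falls, ordered by the size of the change. In each row the circles and the diamonds do not overlap; Cd24a, at the bottom, runs from 1.76 to 2.18 with TGFb and from -0.35 to -0.08 with IL6.

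Which sample moved differed between the 2 directions. Of the 37 genes with a lower ratio, the change passed the threshold in Treg alone for 15, all downward, in T-effector alone for 10, all upward, in both samples in 1 direction for 9, in opposite directions for 2 and in neither for 1. Of the 20 genes with a higher ratio, it passed in both samples in 1 direction for 13, in T-effector alone for 4, in Treg alone for 1, in opposite directions for 1 and in neither for 1. The class rests on which sample passed the threshold, and between 45 (slide as a fixed block) and 57 of the 57 genes kept theirs over the alternatives tried, with no change of sign among the called changes in either sample. In all, IL6 changed 1066 genes in Treg (5.37% of those tested, with 549 up, 2.76%, and 517 down, 2.6%) and 1432 in T-effector (7.21%, with 805 up, 4.05%, and 627 down, 3.16%). Of these, 730 moved in 1 direction in both, which is 68.5% of the Treg genes and 51% of the T-effector genes, and 3 moved in opposite directions. Among the 730, the ratio of 22 passed the threshold.

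**Figure D2:**
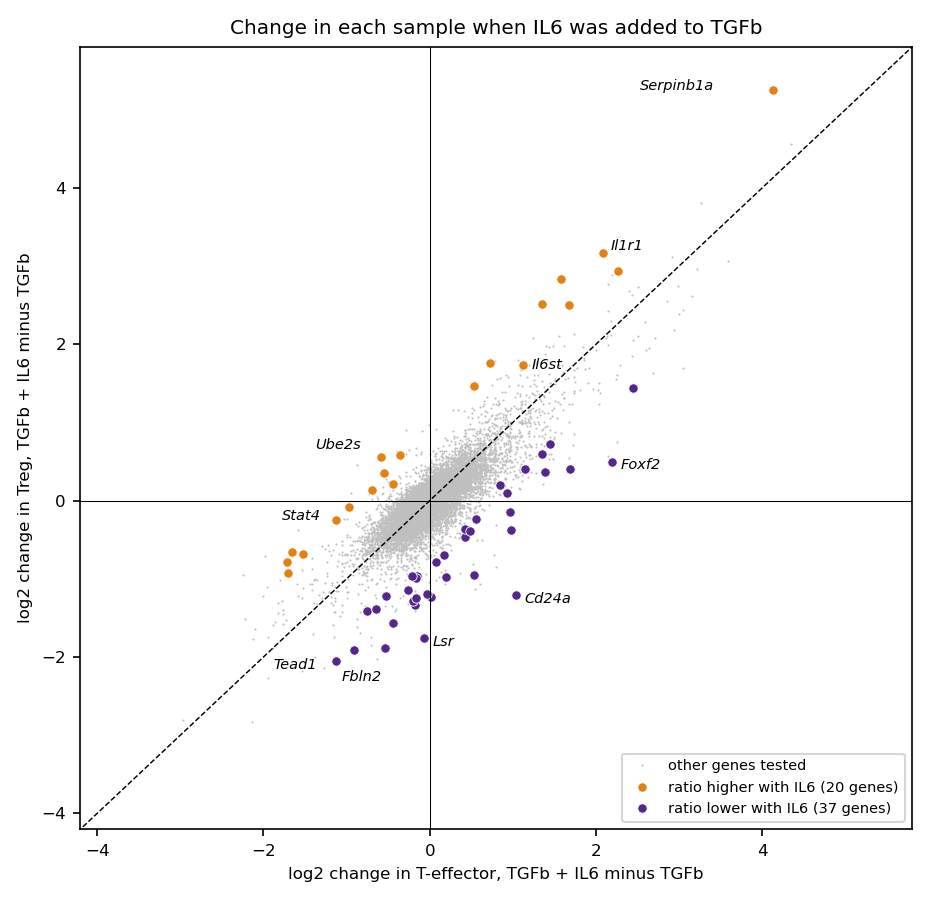
Log2 change with IL6 in T-effector (horizontal axis) and in Treg (vertical axis) for all 19867 genes, with the 20 genes of higher ratio and the 37 of lower ratio coloured and the dashed line marking equal change in both samples. Most genes lie along the line; Cd24a (Treg -1.21, T-effector 1.04) lies across it, Lsr (-1.76, -0.07) moved in Treg and Foxf2 (0.50, 2.19) in T-effector.

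Cd24a showed the largest ratio change of all genes tested. It encodes the heat-stable antigen CD24, a glycoprotein anchored to the surface of immature lymphocytes, B cells and activated T cells. Its probe lies at chr10:43397200-43397259 in build mm7, the build of the array design. The ratio was 1.94, 1.76 and 2.18 with TGFb and -0.35, -0.32, -0.08 and -0.09 with IL6, so the Treg sample was far above the T-effector sample without IL6 and just below it with IL6, with no overlap. The difference was -2.25 ± 0.23 (adjusted p = 0.00346), a ratio 4.75-fold lower. Both samples moved. The Treg signal fell from 9.89, 10.16 and 10.05 to 8.66, 8.96, 8.66 and 9.18 (-1.21 ± 0.21, adjusted p = 0.000711), and the T-effector signal rose from 7.95, 8.40 and 7.87 to 9.01, 9.28, 8.75 and 9.27 (1.04 ± 0.21, adjusted p = 0.00265). The 2 samples thus met at a middle level. Of the B cell markers named above, Ighm fell in both samples. Among the 14 B cell markers measured, 2 fell in Treg and 1 in T-effector, against 2.6% and 3.16% of all genes. The part of B cells in the Cd24a values was not tested. A probe for Gm6212, a pseudogene with the RefSeq synonym HSA-C whose sequence may be shared with Cd24a, gave 0.82, 0.97 and 1.66 and then -0.74, -0.16, 0.08 and -0.05 (-1.47 ± 0.15, adjusted p = 0.00391). Its Treg signal fell by 0.95 ± 0.16, and its T-effector change of 0.53 ± 0.16 was not past the threshold (adjusted p = 0.0528). The 2 probes are not independent evidence if they bind 1 transcript.

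2 other genes moved in opposite directions in the samples. Psmb10, an inducible catalytic subunit of the immunoproteasome, fell in Treg (-0.47 ± 0.12) and rose in T-effector (0.43 ± 0.12), which took its ratio from 0.96, 0.58 and 0.18 to -0.08, -0.26, -0.59 and -0.65. Ube2s, a ubiquitin-conjugating enzyme that works with the anaphase-promoting complex, did the reverse, with 0.56 ± 0.16 in Treg and -0.58 ± 0.16 in T-effector. The ratio of Ube2s was 0.21, 0.41 and 0.14 with TGFb and 1.19, 1.50, 1.41 and 1.32 with IL6 (1.14 ± 0.15, adjusted p = 0.0126). These values come from a probe placed at chr9:56465919-56465970 in build mm7. A second Ube2s probe, placed at chr7:4382153-4382212, gave 1.04 ± 0.25. It was not past the threshold when every probe was tested (adjusted p = 0.206). The 2 probes thus lie at different loci, and which transcript the chr9 probe measures was not tested.

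In the largest class, 15 genes, IL6 lowered the signal in Treg while the T-effector change stayed short of the threshold. Lsr, a lipoprotein receptor that also builds tricellular junctions of epithelia, had the largest ratio change of the class. Its Treg signal was 10.14, 10.25 and 9.72 with TGFb and 8.29, 8.55, 7.89 and 8.38 with IL6 (-1.76 ± 0.26, 3.39-fold lower), against 7.54, 8.29 and 7.81 and then 7.50, 8.07, 7.55 and 8.08 in T-effector (-0.07 ± 0.26). Its ratio went from 2.61, 1.97 and 1.91 to 0.79, 0.48, 0.34 and 0.30, a fall in every pair that left Treg the higher sample on all 4 arrays (-1.69 ± 0.30, adjusted p = 0.0482). Nucb2, the precursor of the secreted peptide nesfatin, had ratios of 1.99, 1.97 and 2.03 with TGFb and 0.74, 0.83, 0.93 and 0.67 with IL6 (-1.18 ± 0.13, adjusted p = 0.00749). Its Treg signal fell by 0.98 ± 0.15 and its T-effector change was 0.20 ± 0.15. Tlr2, a receptor for bacterial lipoproteins, went from ratios of 2.32, 1.82 and 1.77 to 1.23, 0.86, 0.69 and 0.57 (-1.09 ± 0.16, adjusted p = 0.0169), with -1.29 ± 0.20 in Treg and -0.20 ± 0.20 in T-effector. Nlrp6, a cytosolic NOD-like receptor, went from 0.81, 1.22 and 1.24 to -0.60, -0.15, -0.29 and 0.15 (-1.35 ± 0.20, adjusted p = 0.0183), with -1.89 ± 0.18 in Treg and -0.54 ± 0.18 in T-effector (adjusted p = 0.0753). A second Nlrp6 probe, well above background in 3 of 26 channels, gave -0.66 ± 0.15. Ifitm3, an interferon-induced membrane protein that blocks virus entry, went from 1.39, 1.50 and 1.51 to 0.25, 0.24, 0.36 and 0.26 (-1.23 ± 0.21, adjusted p = 0.0433), with -1.23 ± 0.20 in Treg and 0.01 ± 0.20 in T-effector. The summed signal of 13 myeloid and dendritic markers in Treg was 3810 to 4550 with TGFb and 3970 to 4880 with IL6, with 5 of the 13 well above background in every channel, and the part of such cells was not tested.

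The other members of this class were St8sia4, which adds polysialic acid to surface proteins (ratio change -1.16 ± 0.16), Rasgrp3, an activator of Ras (-1.15 ± 0.17), Mical2, an actin-oxidizing enzyme (-1.12 ± 0.17), Ndrg4 (-1.08 ± 0.19), Emp3 (-0.86 ± 0.11), the repressor Zbtb18 (-0.86 ± 0.15), the RNA-editing enzyme Apobec1 (-0.82 ± 0.14), Agap1 (-0.82 ± 0.15) and Adamtsl2 (-0.76 ± 0.13). Rasgrp3 was not well above background in T-effector on any of the 7 arrays, nor in Treg with IL6, and its Treg signal was at least 2.27-fold lower with IL6. For St8sia4, Mical2, Ndrg4, Apobec1 and Agap1 another probe of the gene gave -0.37 ± 0.15, -0.04 ± 0.13, -0.19 ± 0.15, -0.05 ± 0.11 and 0.04 ± 0.19 in that order, none past the threshold, so the change in these 5 rests on 1 probe each.

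For 10 genes of lower ratio the T-effector signal rose while the Treg change was short of the threshold. Foxf2, a forkhead transcription factor studied mainly in mesenchyme, had the largest such rise. Its T-effector signal went from 7.80, 7.90 and 7.33 to 10.11, 9.95, 9.36 and 9.81 (2.19 ± 0.19, 4.57-fold), while its Treg signal went from 8.30, 8.60 and 8.41 to 8.70, 9.06, 8.94 and 9.33 (0.50 ± 0.19, adjusted p = 0.172). The ratio turned from 0.50, 0.70 and 1.08 to -1.41, -0.89, -0.42 and -0.48, so the sample with the higher signal changed (-1.69 ± 0.20, adjusted p = 0.00912). Myof, a ferlin of membrane repair, went from ratios of 1.66, 1.68 and 2.24 to 0.34, 0.43, 0.73 and 0.70 (-1.34 ± 0.13, adjusted p = 0.00346), with 0.98 ± 0.12 in T-effector and -0.37 ± 0.12 in Treg (adjusted p = 0.0978). Of its 2 other probes, 1 gave -1.60 ± 0.13 and 1, well above background in 5 of 26 channels, -0.47 ± 0.13. Speer3, of a rodent gene family whose transcripts may bind 1 probe, went from 1.37, 1.26 and 1.85 to -0.06, 0.20, 0.58 and 0.49 (-1.29 ± 0.12, adjusted p = 0.00346), with 1.69 ± 0.25 in T-effector. B4galt1, a galactosyltransferase of N-glycans, went from 1.24, 1.14 and 1.46 to 0.01, 0.09, 0.40 and 0.28 (-1.12 ± 0.15, adjusted p = 0.0126). Its T-effector signal rose by 0.97 ± 0.14 to the level of Treg, where the change was -0.14 ± 0.14. Of its other probes, 1 gave -1.18 ± 0.16 and 1 gave -0.26 ± 0.10. The class was completed by Endod1 (-1.03 ± 0.15), the ubiquitin ligase Nedd4 (-0.88 ± 0.14), Irf2bpl (-0.83 ± 0.12), Lgals8, a galectin (-0.78 ± 0.11, other probe -0.29 ± 0.15), Abcg1, a cholesterol exporter (-0.77 ± 0.13), and Prr5l (-0.65 ± 0.11). In Nedd4 and Abcg1 the samples differed little in the size of their change, with -0.39 ± 0.13 and -0.36 ± 0.11 in Treg and 0.49 ± 0.13 and 0.42 ± 0.11 in T-effector.

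**Figure D3:**
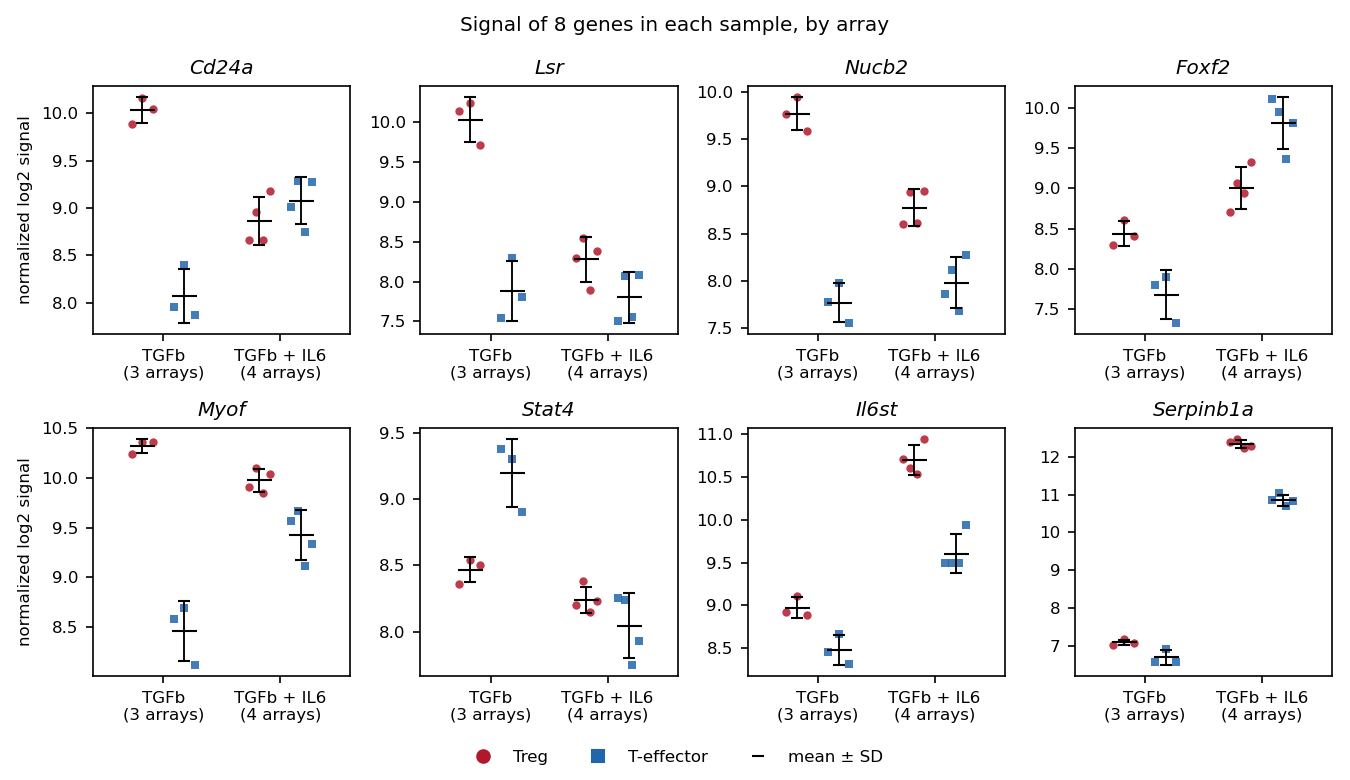
Normalized log2 signal of 8 genes in Treg (circles) and T-effector (squares), 1 point per array, with the mean and SD as bars, for 3 arrays with TGFb and 4 with TGFb and IL6; vertical scales differ between panels and do not start at 0. In Cd24a the samples converge from both sides, in Lsr and Nucb2 Treg falls, in Foxf2 and Myof T-effector rises, in Stat4 T-effector falls, and in Il6st and Serpinb1a both rise, Treg more.

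Another 9 genes of lower ratio moved the same way in both samples. 5 fell in both, more in Treg. Among them were Tead1, the DNA-binding partner of Yap (Treg -2.05 ± 0.16, T-effector -1.13 ± 0.16, ratio -0.92 ± 0.16), Fbln2, an extracellular matrix protein (-1.91 ± 0.13, -0.91 ± 0.13 and -1.0 ± 0.13), and Ifitm2, a relative of Ifitm3 (-1.41 ± 0.13, -0.75 ± 0.13 and -0.65 ± 0.10). The ratio of Fbln2 was 1.34, 1.08 and 1.21 with TGFb and 0.22, 0.11, 0.11 and 0.34 with IL6. 4 rose in both, more in T-effector: Prnp, the prion protein (0.41 ± 0.11 in Treg, 1.15 ± 0.11 in T-effector), Acsbg1, an acyl-CoA synthetase (0.72 ± 0.12 and 1.45 ± 0.12), Ccng2, a cyclin of resting cells (0.60 ± 0.13 and 1.35 ± 0.13), and an unnamed transcript, TC1516668 (1.44 ± 0.12 and 2.44 ± 0.12). Arl4d passed the threshold in its ratio (-0.87 ± 0.12) but in neither sample, and its other probe gave 0.18 ± 0.22.

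Among the genes of higher ratio, Il6st and Il1r1, both cytokine receptor chains, rose in both samples. Il6st, the gp130 chain through which IL6 signals, had ratios of 0.45, 0.44 and 0.57 with TGFb and 1.21, 1.12, 1.05 and 1.00 with IL6, a separation with no overlap (0.61 ± 0.11, adjusted p = 0.0433). Its probe lies at chr13:109662276-109662335 in build mm7. In Treg the signal rose from 8.92, 9.11 and 8.89 to 10.71, 10.61, 10.54 and 10.94 (1.73 ± 0.12, adjusted p = 2.15e-09), and in T-effector from 8.46, 8.67 and 8.32 to between 9.49 and 9.94 (1.12 ± 0.12, adjusted p = 1.23e-06). That is 3.32-fold in Treg and 2.17-fold in T-effector. Il6ra, the chain that binds IL6, had a ratio difference of -0.20 ± 0.16, with -0.24 ± 0.22 in Treg and -0.04 ± 0.22 in T-effector, and passed no threshold. Il1r1, the IL1 receptor of Th17 cells, was not well above background in either sample on any array with TGFb, and well above it on all 4 with IL6. Its signal was at least 7.32-fold higher with IL6 in Treg and at least 4.12-fold higher in T-effector. The ratio was -0.19, -0.06 and -0.04 with TGFb, between 2 signals at background, and 0.91, 0.95, 1.24 and 1.06 with IL6 (1.08 ± 0.18, adjusted p = 0.0332). Tnfrsf1b, the TNF receptor 2 that Treg carry, went from 0.46, 0.23 and 0.20 to 1.03, 0.86, 0.89 and 0.92 (0.65 ± 0.11, adjusted p = 0.0403). Neither sample passed on its own (0.21 ± 0.18 and -0.44 ± 0.18), and a second Tnfrsf1b probe gave -0.21 ± 0.11, so the direction is not settled.

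Promoter windows from RefSeq (GRCm38.p6, the 250 bases before the gene start) were matched by symbol for 43 of the 57 genes, in 59 windows. They were read for the core to which STAT factors bind, TTCNNNGAA, and that of AP-1, TGANTCA, each of which reads the same on both strands; the 2 do not overlap in the windows shown. A STAT core was found in 4 of the 59 windows (6.78%), of Acsbg1, B4galt1, Nedd4 and Tnfrsf1b, against 7.02% of all 32851 windows, and an AP-1 core in 5 (8.47%), of Ifitm3, Lsr, Nedd4, Nlrp6 and Prnp, against 6.75%. These shares are close to those of all windows. The windows of 4 genes whose samples moved in different ways are given 5′ to 3′, with a match in capitals: Il6st (chr13:112463820-112464069, plus strand), which rose in both samples and holds neither core, Tnfrsf1b (chr4:145246871-145247120, minus strand), with a STAT core that starts 181 bases before the gene, B4galt1 (chr4:40853985-40854234, minus strand), which rose in T-effector and has a STAT core at 99 bases, and Lsr (chr7:30973470-30973719, minus strand), which fell in Treg and has an AP-1 core at 65 bases. A match is a description of letters, not of binding.
Il6st: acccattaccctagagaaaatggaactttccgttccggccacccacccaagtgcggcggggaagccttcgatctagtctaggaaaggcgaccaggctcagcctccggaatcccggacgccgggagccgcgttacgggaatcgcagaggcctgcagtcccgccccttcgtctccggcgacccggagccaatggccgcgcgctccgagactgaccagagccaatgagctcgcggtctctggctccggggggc
Tnfrsf1b: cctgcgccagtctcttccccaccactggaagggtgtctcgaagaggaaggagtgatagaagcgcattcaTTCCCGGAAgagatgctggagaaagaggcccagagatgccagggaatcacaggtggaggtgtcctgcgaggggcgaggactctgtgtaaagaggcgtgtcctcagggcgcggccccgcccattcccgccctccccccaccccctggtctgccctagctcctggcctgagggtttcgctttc
B4galt1: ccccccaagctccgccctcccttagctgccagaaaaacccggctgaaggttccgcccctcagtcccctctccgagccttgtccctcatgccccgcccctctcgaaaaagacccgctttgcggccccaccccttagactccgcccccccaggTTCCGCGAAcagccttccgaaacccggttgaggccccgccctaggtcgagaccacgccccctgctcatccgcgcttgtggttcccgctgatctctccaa
Lsr: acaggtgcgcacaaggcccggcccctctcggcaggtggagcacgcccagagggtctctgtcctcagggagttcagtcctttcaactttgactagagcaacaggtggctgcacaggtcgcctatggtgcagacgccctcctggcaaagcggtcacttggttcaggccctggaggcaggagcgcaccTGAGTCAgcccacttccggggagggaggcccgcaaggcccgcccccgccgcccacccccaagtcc

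3 related serpins also rose in both samples. Serpinb1a, an inhibitor of neutrophil proteases, had the largest rises of any of the 57 genes in both samples. Its Treg signal went from 7.04, 7.18 and 7.07 to 12.38, 12.46, 12.24 and 12.28 (5.25 ± 0.18, 38.1-fold) and its T-effector signal from 6.59, 6.93 and 6.59 to 10.85, 11.04, 10.69 and 10.82 (4.13 ± 0.18, 17.6-fold), where it had been well above background on 2 of 3 arrays. The ratio went from 0.44, 0.24 and 0.48 to 1.52, 1.42, 1.55 and 1.45 (1.12 ± 0.20), the closest of all calls to the threshold (adjusted p = 0.0499). Serpinb1b went from 0.00, -0.17 and 0.08 to 1.57, 0.97, 0.96 and 0.98 (1.16 ± 0.16, adjusted p = 0.0149), and Serpinb1c from -0.21, -0.28 and 0.24 to 1.36, 1.16, 1.21 and 1.04 (1.25 ± 0.16, adjusted p = 0.0126). Serpinb1b was not well above background in T-effector with TGFb, where its rise was at least 2.56-fold. In Treg with TGFb, Serpinb1b and Serpinb1c were well above background on 1 of 3 arrays each, and Serpinb1c in T-effector on 1 of 3. Their ratios with TGFb are thus mostly between signals near background. The 3 genes are close copies whose transcripts may bind each other's probes, so they are not 3 separate observations. Others that rose in both were Slc9a2, a sodium-proton exchanger (1.76 ± 0.17 in Treg, 0.73 ± 0.17 in T-effector), Crispld2 (1.46 ± 0.12 and 0.53 ± 0.12), Timp1, an inhibitor of matrix metalloproteinases (2.93 ± 0.13 and 2.26 ± 0.13), and the transcript C030027H14Rik (2.50 ± 0.13 in Treg, well above background on 1 of 3 arrays with TGFb, and at least 3.08-fold in T-effector), whose ratio difference of 0.82 ± 0.12 turned to -0.40 with Agilent's processed signals. Of the other Timp1 probes, 1 gave 0.48 ± 0.12 and 1 gave 0.49 ± 0.11 against 0.68 ± 0.11 here.

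In 4 genes of higher ratio the change passed the threshold in T-effector alone, downward. Stat4, the transcription factor that carries IL12 signals in Th1 cells, had ratios of -1.02, -0.76 and -0.39 with TGFb and -0.05, 0.14, 0.41 and 0.30 with IL6 (0.88 ± 0.13, adjusted p = 0.0197). Its probe lies at chr1:52340536-52340595 in build mm7. The T-effector signal fell from 9.38, 9.30 and 8.90 to 8.25, 8.24, 7.75 and 7.93 (-1.13 ± 0.12, adjusted p = 1.9e-06), below every value with TGFb. In Treg it was 8.36, 8.54 and 8.50 and then 8.20, 8.38, 8.15 and 8.23 (-0.25 ± 0.12, adjusted p = 0.337), so the signal with IL6 was close in the 2 samples. The T-effector signal also fell for Gpr171, a G protein-coupled receptor (-0.55 ± 0.10, Treg 0.35 ± 0.10 with adjusted p = 0.0554), for Hdc, which makes histamine (-0.97 ± 0.13), and for Zfp948 (-0.69 ± 0.12, Treg 0.13 ± 0.12). In Treg, Hdc was well above background on 1 of 3 arrays with TGFb and 1 of 4 with IL6, so a fall there could not be seen. The ratios of Gpr171 were -1.13, -1.23 and -1.19 with TGFb and -0.26, -0.30, -0.28 and -0.39 with IL6 (0.90 ± 0.12, adjusted p = 0.0126), so T-effector remained the higher sample on all 7 arrays.

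4 genes of higher ratio fell in both samples. Tnfsf4, the OX40 ligand, fell by 0.68 ± 0.14 in Treg and by 1.52 ± 0.14 in T-effector, and its ratio went from -0.73, -0.64 and -0.79 to 0.08, -0.04, 0.26 and 0.24 (0.84 ± 0.15, adjusted p = 0.0476). The others were the LIM-domain protein Fhl2 (-0.79 ± 0.15 and -1.72 ± 0.15), Gramd1b, a sterol carrier (-0.92 ± 0.11 and -1.71 ± 0.11), and the vasopressin receptor Avpr1a, which was not well above background in either sample with IL6 (at least 1.52-fold lower in Treg and 3.11-fold lower in T-effector). Serpine2, a protease inhibitor, was the 1 gene of higher ratio that changed in Treg alone (0.58 ± 0.13, T-effector -0.36 ± 0.13 with adjusted p = 0.126).

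About as many Th17 genes rose in Treg as in T-effector. Of 20 Th17 genes, 9 rose and 1 fell in Treg, 10 rose and 1 fell in T-effector, and 1, Il1r1, had a changed ratio. Over all genes 2.76% rose and 2.6% fell in Treg, 4.05% rose and 3.16% fell in T-effector, and 0.287% had a changed ratio. The median ratio difference was 0.06, against -0.01 over all genes tested. Il17f signal rose by 3.07 ± 0.12 in Treg and 3.59 ± 0.12 in T-effector. Its ratio was -0.46, 0.00 and 0.16 with TGFb and -0.77, -0.34, -0.55 and -0.70 with IL6, which overlap (-0.52 ± 0.15, adjusted p = 0.383). Il21, the cytokine that sustains Th17 and follicular helper cells, rose by 4.56 ± 0.36 and 4.34 ± 0.36, and Il17a by 1.33 ± 0.16 and 1.19 ± 0.16. Their ratio differences of 0.22 ± 0.41 and 0.14 ± 0.17 were within 2 standard errors of 0. In the authors' deposited values, treated as log2, the differences were larger, 1.45 for Il21 and 1.11 for Il17a, and -0.46 for Il17f. The cause of this gap for Il21 and Il17a was not tested, so their equal response is not settled. Il17a, Il17f and Il21 were each well above background in Treg on 2 of 3 arrays with TGFb. Ahr, the aryl hydrocarbon receptor, rose by 2.18 ± 0.19 in Treg and 2.94 ± 0.19 in T-effector, and its ratio difference of -0.76 ± 0.15 fell short of the threshold (adjusted p = 0.0854). Il9 had the largest ratio difference of the list, 1.33 ± 0.43, which did not pass (adjusted p = 0.479). Its ratios were -0.33, 0.01 and -0.07 with TGFb and 1.11, 1.23, 1.3 and 1.15 with IL6, which do not overlap. The Il9 change was 0.46 ± 0.36 in Treg and -0.87 ± 0.36 in T-effector, neither past the threshold.

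**Figure D4:**
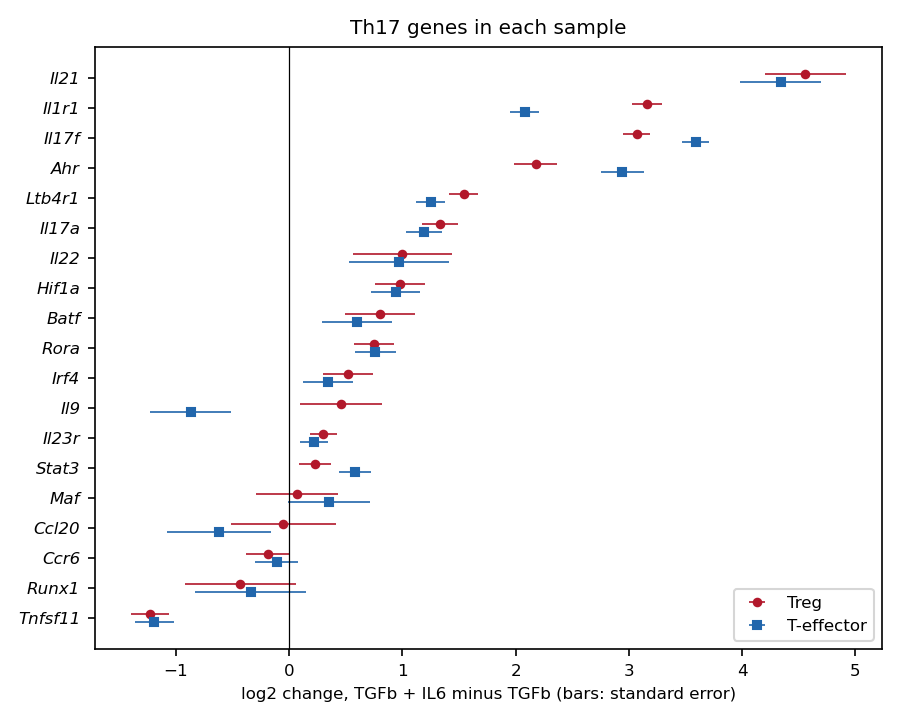
Log2 change with IL6 added to TGFb in Treg (circles) and T-effector (squares) for genes of the Th17 list, with standard errors as bars. Il21 (4.56 and 4.34), Il17f (3.07 and 3.59) and Il17a (1.33 and 1.19) rose in both samples; the sizes plotted for Il1r1 start from signals at background and are not ranked.

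Targets of the IL6 signal also rose in both samples. Of 26 genes of the IL6 and Stat3 response, 10 rose and 0 fell in each sample, the same 10 genes, and none had a changed ratio (median difference 0.01). Over all genes 2.76% rose and 2.6% fell in Treg, 4.05% rose and 3.16% fell in T-effector, and 0.287% had a changed ratio. Socs3, the feedback inhibitor of gp130, rose by 2.74 ± 0.24 in Treg and 2.98 ± 0.24 in T-effector, with a ratio difference of -0.23 ± 0.27, and Cebpd rose by 2.13 ± 0.25 and 1.73 ± 0.25. Il10 rose by 2.73 ± 0.30 and 2.51 ± 0.30. In the list of IL6 receptor chains, Janus kinases and STAT factors, 2 of 26 genes had a higher ratio, Il6st and Stat4 (0.101% of all genes did). Of the list, 3 rose in Treg and 7 in T-effector, and over all genes more rose in T-effector too. Stat3 itself rose in T-effector (0.58 ± 0.14) with 0.23 ± 0.14 in Treg, and Stat2 rose by 1.21 ± 0.13 in T-effector and 0.53 ± 0.13 in Treg. Their ratio differences of -0.36 ± 0.17 and -0.68 ± 0.18 passed no threshold, and a second Stat3 probe gave -0.01 ± 0.11.

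Of 28 measured Treg core genes, 1, Tnfrsf1b, passed the threshold in the ratio (0.287% of all genes did), and the median difference was -0.13. The ratio difference of Foxp3 was 0.20 ± 0.22, with a Treg signal of 8.80, 9.07 and 8.43 with TGFb and 9.05, 9.20, 8.82 and 8.97 with IL6, which overlap. Its T-effector signal was 6.33, 7.22 and 6.68 and then 6.33, 7.22, 6.76 and 7.10. Differences for Il2ra, the high-affinity IL2 receptor chain (-0.39 ± 0.25), Ctla4, an inhibitory receptor (-0.14 ± 0.18), and Ikzf2, the Helios factor (-0.39 ± 0.25), were all within 2 standard errors of 0. Other probes of Ikzf2 gave ratio differences of -0.19 to 0.06, and those of Il2ra -0.54 to -0.20. Ctla4 rose in both samples (0.65 ± 0.15 and 0.79 ± 0.15), while Ikzf2 fell in Treg (-0.85 ± 0.20) with -0.46 ± 0.20 in T-effector. Itgae, the CD103 integrin chain, had ratios of 2.94, 3.36 and 3.17 with TGFb and 2.33, 2.60, 2.60 and 2.44 with IL6, which do not overlap, but its difference of -0.72 ± 0.23 did not pass (adjusted p = 0.476). Il2, the T cell growth factor, had a ratio difference of 0.45 ± 0.11 (adjusted p = 0.222), and a second probe gave 0.11 ± 0.15. It fell in T-effector (-0.75 ± 0.10), where it was well above background on 1 of 4 arrays with IL6.

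Lists of TGFb and interferon targets had no gene past the threshold in the ratio, where 0.287% of all genes passed. More genes rose in T-effector than in Treg over all genes too (4.05% and 2.76%). Of 29 TGFb response genes, 8 rose and 1 fell in T-effector and 3 rose and 0 fell in Treg, with a median ratio difference of -0.16. Ldlrad4, an inhibitor of TGFb signalling, rose by 1.43 ± 0.18 in T-effector with 0.53 ± 0.18 in Treg, and Smad7, another inhibitor, by 1.34 ± 0.20 and 0.72 ± 0.20. Tgfb3 rose by 1.18 ± 0.14 in T-effector with 0.30 ± 0.14 in Treg, and its ratio went from 0.54, 0.59 and 0.90 to -0.36, 0.12, -0.07 and -0.33, which do not overlap (-0.87 ± 0.16, adjusted p = 0.0644). Of 25 interferon response genes, 10 rose in T-effector, 3 rose in Treg and 0 fell, with a median ratio difference of -0.26; Ifitm2 and Ifitm3, described above, are not in that list. In the follicular helper list, none of 13 passed the threshold in the ratio and the median difference was 0.36. Btla, an inhibitory receptor, went from -1.39, -1.42 and -1.27 to -0.61, -0.49, -0.56 and -0.72 (0.81 ± 0.17, adjusted p = 0.115), and Cd200 from -1.29, -1.51 and -1.28 to -0.69, -0.76, -0.49 and -0.41 (0.78 ± 0.15, adjusted p = 0.0682). Both were lower in Treg on all 7 arrays, and both fell in T-effector (-0.73 ± 0.15 and -1.80 ± 0.13), Cd200 also in Treg (-1.02 ± 0.13). In the list of TNF receptors and ligands, 2 of 26 passed it, Tnfsf4 and Tnfrsf1b, against 0.287% of all genes. The direction of Tnfrsf1b is not settled, since its second probe gave -0.21 ± 0.11. In this list 12 genes moved the same way in both samples, against 730 of all 19867 genes.

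The same contrast was made without TGFb, as IL6 (3 arrays) minus IL2 alone (3 arrays). No gene passed the threshold there (0% of 19867; 682, or 3.43%, had an unadjusted p under 0.05 in limma). Among the 57 genes the median size of the change was 0.92 with TGFb and 0.15 without, and 27 had the opposite sign without TGFb. Since the 57 were chosen with TGFb, a smaller size elsewhere is partly built in. The test of the difference between the 2 IL6 effects was passed by 0 genes (719, or 3.62%, had an unadjusted p under 0.05 in limma), and its lowest adjusted p was 0.051, shared by Arl4d, Cd24a, Endod1, Gm6212, Gpr171, Irf2bpl, Myof, Speer3, Timp1 and Ube2s. For Cd24a the change was 0.33 ± 0.25 without TGFb, a difference of -2.57 ± 0.34 between the effects. The ratios of Timp1 and Ube2s changed by -0.53 ± 0.12 and -0.49 ± 0.16 without TGFb, against 0.68 ± 0.11 and 1.14 ± 0.15 with it. Foxf2 (-1.28 ± 0.22), Serpinb1a (1.43 ± 0.22) and Il6st (0.53 ± 0.12) had changes without TGFb near those with it. Without array 2 of IL6, the only IL6 array on its slide, 90 genes passed without TGFb and 43 in the difference. That these genes respond to IL6 only under TGFb is therefore not shown.

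**Figure D5:**
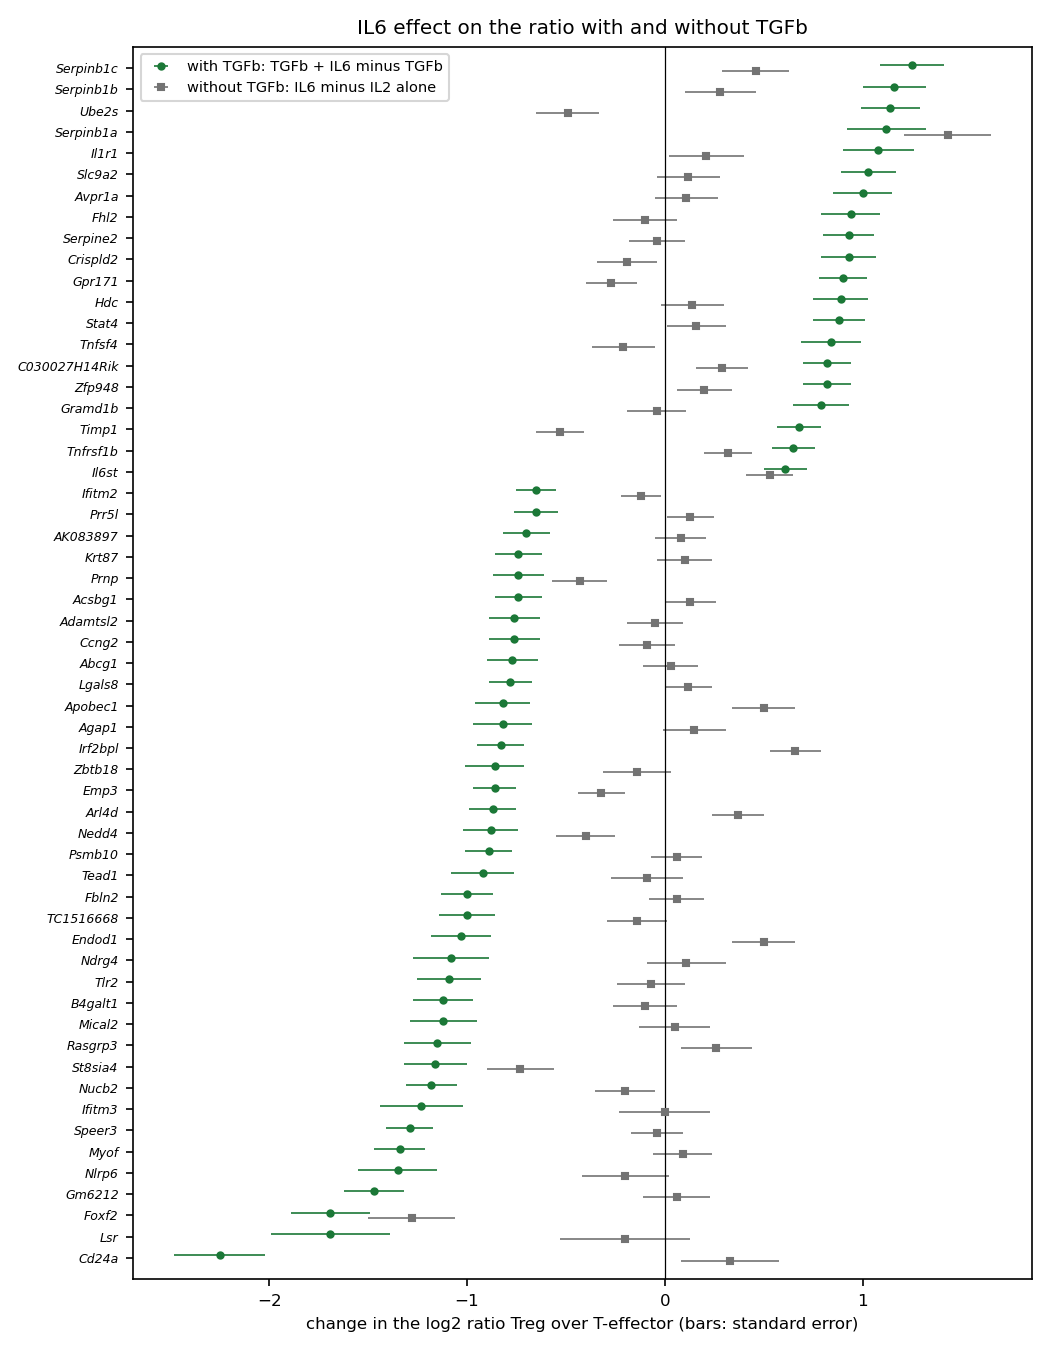
Change of the log2 ratio of Treg over T-effector with IL6 (horizontal axis, bars are standard errors) for the 57 genes, with TGFb (circles, 4 against 3 arrays) and without it (squares, 3 against 3 arrays). Most squares lie near 0, while those of Foxf2, Serpinb1a and Il6st lie near the circle of the same gene.

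How many genes passed depended on single arrays. Arrays 1, 2 and 3 of the 2 conditions pair by slide and dye, and with the pairs as a block 14 genes passed (0.0705%), all among the 57: Cd24a, Fbln2, Foxf2, Gm6212, Mical2, Myof, Ndrg4, Nucb2, Serpine2, Slc9a2, Speer3, St8sia4, Tlr2 and Ube2s. No difference among the 57 moved by over 0.11 with the block. With the block the adjusted p was 0.0377 for Cd24a, 0.0664 for Stat4, 0.159 for Il6st and 0.127 for Lsr. Without array 1, 2 or 3 with TGFb the count was 8, 21 or 4, and without array 1, 2, 3 or 4 with IL6 it was 10, 22, 7 or 9; all 57 kept their sign each time, and Cd24a, Myof and Speer3 passed in every such fit. Foxf2, Gm6212 and Nucb2 lost the call only without array 3 with TGFb. Stat4 and Il6st lost it whichever of the 7 arrays with TGFb was left out. With the spatial trend removed, 298 genes passed (1.5%), the 57 among them. Median centring in place of loess left 8 genes, 0 higher and 8 lower, where the main split was 20 and 37, with the median of all genes at -0.09 against -0.01.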

How the data were processed

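Each of 13 2-colour Agilent arrays carried a Treg and a T-effector sample. The scanner files hold deposited intensities per spot (mean signal and local background of either dye). Per the file headers, Agilent Feature Extraction 9.5.1.1 wrote them, and it also gave processed intensities and their log10 ratio of Cy5 over Cy3; the latter was read only to check the direction of the dyes. The authors' deposited value table has 1 value per probe and condition, treated as log2 here; its scale and centring are not stated. Its values correlated with the mean log2 ratios at 0.766 to 0.803 across genes, which are not independent replicates, with Treg over T-effector as the positive direction, slopes of 1.42 to 1.75 and column medians of -0.03 (IL2), -0.05 (TGFb), -0.05 (TGFb and IL6) and -0.04 (IL6), and the change of all 57 genes had the same sign there.

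Background was corrected with normexp (offset 50, limma 3.58.1, R 4.3.3), arrays were normalized by loess, and ratios were turned to Treg over T-effector by the labelled dye. A probe had to be well above background in 3 or more of 26 channels, and the brightest probe stood for a gene. Ratios were fitted over all 13 arrays with 4 conditions and a dye term (lmFit, eBayes, Benjamini-Hochberg adjustment). Each sample's signal was fitted as separate channels after Aquantile normalization, with an intraspot correlation of 0.447. Fits were tested on simulated data whose noise held no slide, pair or spatial effects. That test therefore does not show how such effects bear on the counts. The number of arrays limits the precision.

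Same-numbered arrays with TGFb and with TGFb and IL6 share slide and dye in the files and deviated together (correlations of 0.756, 0.728 and 0.535), so they pair. Alternatives were the background correction, normalization, dye term, filter, probe rule, slide, pairing, spatial trend, the arrays fitted and each array left out. Genes named are Cd24a, Stat4 and Il6st, 12 anchor genes, the 20 largest rises and 20 largest falls past the threshold and members of gene lists past it; other genes past the threshold and other list members were named after their values were seen. The members and lists were chosen with earlier results of these data known. Values of 1 anchor gene are not reported here.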

Additional observations from a re-analysis of the deposited data

Results flagged for a closer look

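In 6 of 52 genes examined, 1 of the 4 arrays with TGFb and IL6 stood apart from the other 3 in the log2 ratio of Treg over T-effector, by Dixon's test at 95%. Chance gives about 1 in 20 groups. In 5 of the 6 it was array 1, on slide E, where the spatial trend held 35.9% of the variance; its part in these values was not tested. The ratio on array 1 was -1.52 for Il21 (-0.98 to -0.89 on the others), 1.57 for Serpinb1b (0.96 to 0.98), 1.66 for Slc9a2 (1.15 to 1.23), 1.66 for Mical2 (1.04 to 1.09) and -0.93 for TC1516668 (-0.49 to -0.43). For C030027H14Rik array 3 stood apart, at 1.30 against 0.93 to 0.98.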

How the results depend on the processing

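The count of 57 genes with a changed ratio under TGFb became 25 with no dye term, 113 with Agilent's processed signals, 30 with no background subtraction, 8 with median centring, 12 when all spots entered the background model, 109 with slide as a fixed block, 144 with slide as a random block, 298 with the spatial trend removed, 116 with only the 7 arrays, and 4 to 102 with 1 array left out. With the replicate block it was 14. The count in Treg (1066) became 2495 and 2237 with slide as a fixed and a random block, and 725 to 1297 with 1 array left out; that in T-effector (1432) became 3073, 2772 and 914 to 1694. The count without TGFb (0) became 3 with no dye term, 4 with processed signals, 2 with all spots, 6 with slide random, 11 with the spatial trend removed and 0 to 90 with 1 array left out. That of the difference between the IL6 effects (0) became 20 with processed signals, 2 with no background subtraction, 12 with no filter, 2 with every probe on its own, 7 and 19 with slide fixed and random, 55 with the spatial trend removed and 0 to 43 with 1 array left out. Neither has a value with only the 7 arrays. Signs turned for Foxp3 (-0.36) and C030027H14Rik (-0.40) with processed signals, for Ctla4 (0.08), Ikzf2 (0.04), Il17a (-0.18) and Il21 (-0.34) with all spots, for Ctla4 without TGFb replicate 2 (0.01) and for Il17a without TGFb replicate 3 (-0.02), in ranges of -0.25 to 0.01 and -0.02 to 0.27 with 1 array left out. Over single named genes and alternatives, 964 values kept direction and side of the threshold and 404 kept direction but lost the call. The cause was not tested. Where a group is at background, as Il1r1 is with TGFb and Rasgrp3 in Treg with IL6, a change is bounded and not measured.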
